A study of Mus musculus with 6 samples.

Results

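The keratin genes Krt7, Krt8, Krt18 and Krt19, the epithelial surface genes Epcam, Cdh1 and Upk3b, and the oviduct glycoprotein gene Ovgp1 were followed in mouse cumulus-oocyte complexes before and after an ovulatory hormone. They were taken by name: every probe set whose only gene symbol in the platform annotation was one of these 8 was included, out of 18193 genes with such a probe set, and this gave 12 probe sets. The 8 genes had been picked with earlier results of the same arrays known, so their values are a description and carry no test of their own.

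In such a complex the oocyte sits in a shell of cumulus cells, which are a kind of granulosa cell. Pooled complexes came from wild type immature female mice, all given equine chorionic gonadotropin (eCG) for 48 h to grow follicles. The 3 groups, with 2 arrays each, were complexes without human chorionic gonadotropin (no hCG), 8 h after hCG and 16 h after hCG, where hCG stands in for the surge that triggers ovulation. By the protocols, no hCG complexes were punctured out of ovaries and those of both hCG times were taken from the oviduct, so the site of collection and the hormone cannot be told apart. The 8 h site is doubtful, as ovulation usually comes later than 8 h after hCG, and if those complexes came from ovaries the site went with 16 h alone. The labels also call the complexes of the no hCG group expanded, although expansion of the cumulus normally follows the ovulatory signal, so the state of that baseline is not certain. Nothing in the labels says that the 2 arrays of a group came from separate animals, so standard errors and p-values cover the scatter of these arrays alone, which may be technical.

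Keratins are the intermediate filament proteins of epithelia. A filament is built from pairs of a type I keratin (Krt18, Krt19) and a type II keratin (Krt7, Krt8), and Krt8 with Krt18 is the pair of simple, single-layered epithelia. Cdh1 encodes E-cadherin, the adhesion molecule of epithelial adherens junctions, and Epcam a homophilic adhesion molecule of many epithelia. Upk3b encodes a uroplakin known from the bladder lining and used as a marker of mesothelium. Ovgp1 encodes oviductin, a glycoprotein that secretory cells of the oviduct release and that binds the zona pellucida of the egg. Granulosa and cumulus cells are themselves epithelial in arrangement but rest mainly on N-cadherin (Cdh2).

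RefSeq promoter sequences (GRCm38.p6) were at hand for 6 of the 8 genes, and 4 are shown, those of the 3 genes with the largest differences between 16 h and 8 h and that of Upk3b, which ran the other way. Each covers 250 bases before to 50 bases after the annotated start on the gene's strand: chr15:102004293-102004592 (minus strand) for Krt8, and chr15:102027966-102028265, chr3:105973552-105973851 and chr5:136038246-136038545 (plus strand) for Krt18, Ovgp1 and Upk3b. Krt8 and Krt18 are neighbours in that assembly, with 0 protein-coding genes between them, and point away from each other. Capitals mark AGGTCA, the half-site of several nuclear receptors, a motif chosen after the sequences had been read.
Krt8: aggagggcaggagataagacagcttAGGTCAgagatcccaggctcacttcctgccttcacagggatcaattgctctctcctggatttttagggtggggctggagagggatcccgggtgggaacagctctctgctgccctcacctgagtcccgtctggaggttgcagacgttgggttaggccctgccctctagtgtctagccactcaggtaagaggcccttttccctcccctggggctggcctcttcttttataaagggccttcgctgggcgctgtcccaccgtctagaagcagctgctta
Krt18: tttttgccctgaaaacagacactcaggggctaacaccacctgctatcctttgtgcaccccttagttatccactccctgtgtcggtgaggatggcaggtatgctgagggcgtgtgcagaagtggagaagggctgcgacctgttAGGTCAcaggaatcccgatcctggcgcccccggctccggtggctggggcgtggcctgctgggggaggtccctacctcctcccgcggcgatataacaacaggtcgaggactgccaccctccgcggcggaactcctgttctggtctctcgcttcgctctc
Ovgp1: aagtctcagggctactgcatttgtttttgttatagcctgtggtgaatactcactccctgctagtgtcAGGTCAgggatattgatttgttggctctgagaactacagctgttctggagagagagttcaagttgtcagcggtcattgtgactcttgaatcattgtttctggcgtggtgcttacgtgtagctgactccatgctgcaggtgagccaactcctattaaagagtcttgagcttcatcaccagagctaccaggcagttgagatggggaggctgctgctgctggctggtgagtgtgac
Upk3b: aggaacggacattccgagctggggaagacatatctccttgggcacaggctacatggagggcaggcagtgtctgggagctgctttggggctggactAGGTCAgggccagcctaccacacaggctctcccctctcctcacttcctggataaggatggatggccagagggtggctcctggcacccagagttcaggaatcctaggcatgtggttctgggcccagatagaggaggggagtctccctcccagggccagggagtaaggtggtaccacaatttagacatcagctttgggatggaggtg

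AGGTCA was searched on both strands (TGACCT on the other) and stood in 5 of the 6 promoters, those of Krt7, Krt8, Krt18, Ovgp1 and Upk3b, against 16% of 27025 promoters of the same 300 bases. Since the motif was chosen after these sequences had been read, nothing is read from that share. It thus stood both before genes that were higher at 16 h and before Upk3b, which was lower. In Krt8 and Krt18 it began 225 and 108 bases before the start, and in Ovgp1 and Upk3b 183 and 155 bases before it. In Krt7 it began 15 bases after the start. The other motifs searched were TATAAA (in Krt8 alone, where both strands match at overlapping positions, and in 14.2% of all promoters), GGGCGG (in Krt7 and Epcam, and in 35.9%), CCAAT (in 0 of the 6, and in 37.9%) and the AP-1 motif TGANTCA (in Ovgp1 alone, and in 7.93%). None of the other matches overlapped AGGTCA. A match is a description of the letters and not a binding site.

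All values below are log2 intensities as deposited, so a difference of 1 is a doubling of signal. Array medians lay between 6.14 and 6.27, and Pearson's r between arrays, taken over probe sets and so not over independent points, was 0.9909 to 0.9956 within groups and 0.9433 to 0.9785 across groups. Cumulus and oocyte markers were present: all 11 measured oocyte markers, and at both hCG times all 11 measured cumulus genes, had group means above 5.62, the limit below which a probe set was called dim and not tested. As checks of the labels, the cumulus hyaluronan synthase gene Has2 differed by 3.24 between 8 h and no hCG, and the zona gene Zp3 by -2.60. Since the signal over background is unknown, differences that reach into low values may be understated. In such bulk samples, fewer cells of a type and less RNA per cell cannot be told apart.

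**Figure D1:**
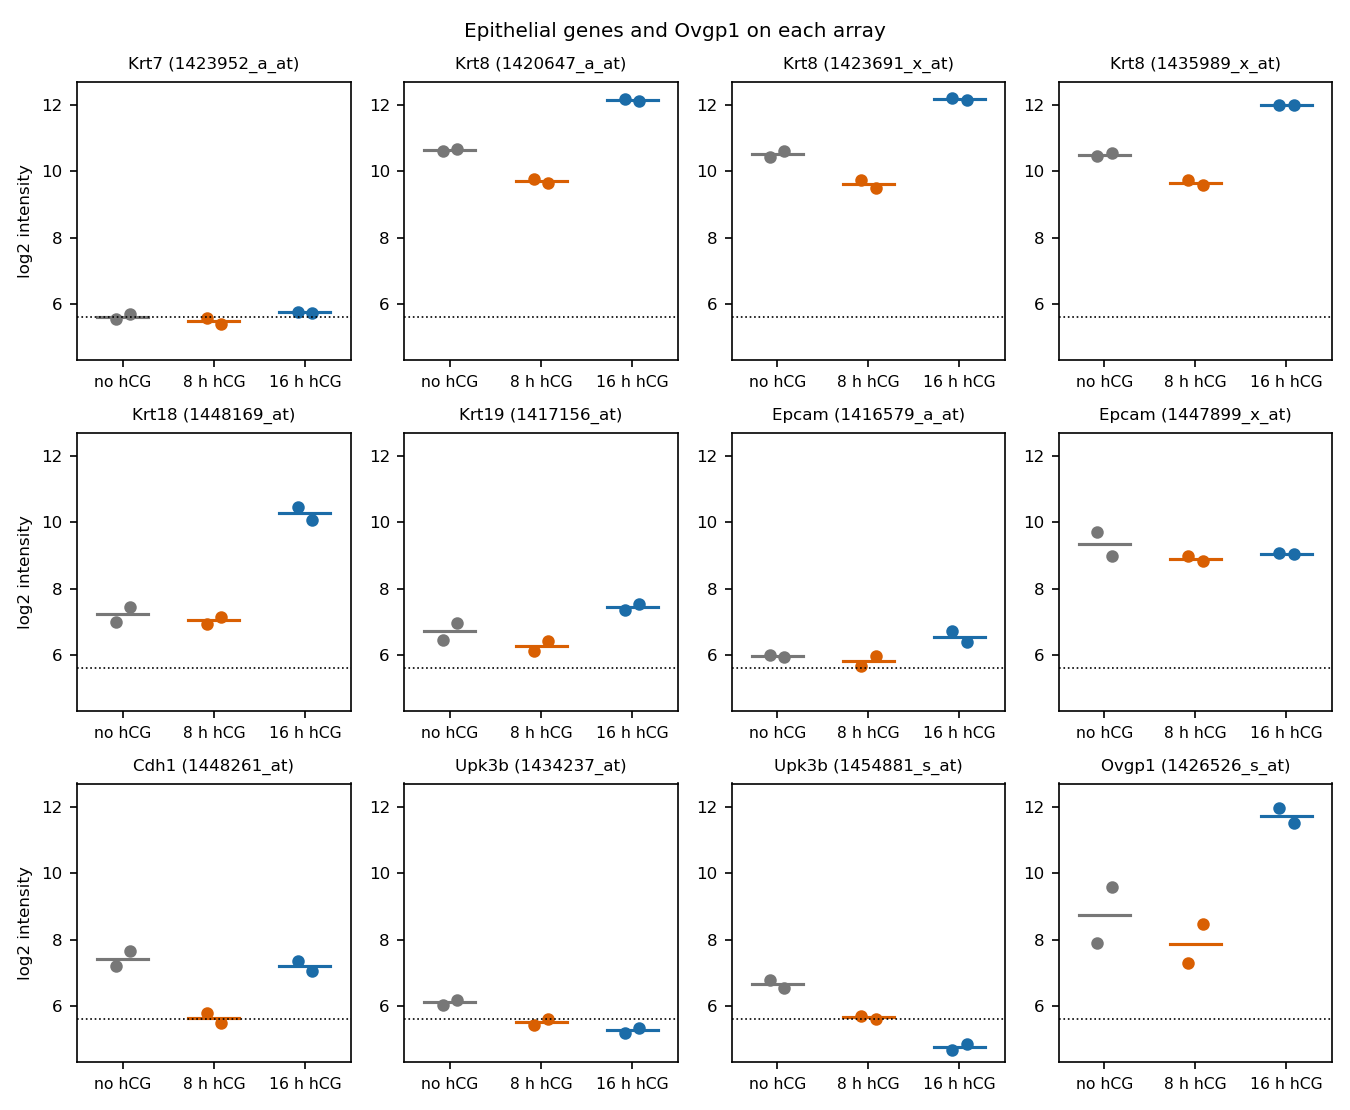
Log2 intensity (vertical axis) of the 12 probe sets on each of the 6 arrays, by group (horizontal axis: no hCG, 8 h hCG, 16 h hCG). Points are arrays, short lines are means of 2 arrays and the dotted line is the limit for dim probe sets (5.62). Krt8, Krt18 and Ovgp1 stand highest at 16 h, Cdh1 is lowest at 8 h, and Upk3b steps down.

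Krt8, the type II partner of the simple epithelial pair, was lower at 8 h and highest at 16 h. On its brightest probe set (1420647_a_at) it measured 10.60 and 10.68 without hCG, 9.75 and 9.65 at 8 h, and 12.18 and 12.10 at 16 h. The 3 groups did not overlap, with 16 h highest and 8 h lowest. The 8 h mean differed from no hCG by -0.94 ± 0.15 (SE of the fit, n = 2 arrays per group here and below). The 16 h mean differed from 8 h by 2.44 ± 0.15, a 5.42-fold higher signal, and from no hCG by 1.497 ± 0.149. The other Krt8 probe sets (1423691_x_at and 1435989_x_at) gave the same order, with differences of 2.55 and 2.33 between 16 h and 8 h. Krt8 has processed pseudogenes in mammals, and probe sets whose names end in _x_at may bind other transcripts. Krt8 counts here through 1420647_a_at because that probe set is the brightest.

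Krt18, the type I partner, differed from Krt8 in its first step. It measured 7.00 and 7.46 without hCG, 6.93 and 7.16 at 8 h, and 10.47 and 10.07 at 16 h. The first 2 groups overlapped and both 16 h arrays stood above all others. Between 8 h and no hCG the difference was -0.18 ± 0.21, inside its error, and between 16 h and 8 h it was 3.22 ± 0.21, a 9.35-fold higher signal. Against no hCG, 16 h was higher by 3.04 ± 0.21. The pair thus shared the late rise in these 6 arrays, while only Krt8 was lower at 8 h beyond its error. Whether the first step of both genes differs was not tested.

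Krt19, a type I keratin of many ducts and of mesothelium, had a smaller late difference. Its values were 6.46 and 6.98 without hCG, 6.12 and 6.42 at 8 h, and 7.34 and 7.54 at 16 h. Both 16 h arrays lay above all others, and the no hCG and 8 h arrays lay next to each other without overlap. The differences were -0.44 ± 0.21 for 8 h against no hCG, 1.17 ± 0.21 for 16 h against 8 h and 0.72 ± 0.21 for 16 h against no hCG. Krt7, the type II keratin that often accompanies Krt19 in ducts, was dim. It measured 5.53 and 5.70 without hCG, 5.59 and 5.39 at 8 h, and 5.77 and 5.72 at 16 h, and was not tested because its mean over the 6 arrays (5.618) fell just under the limit (5.622). No larger step than 0.25, for 16 h against 8 h, was seen between its group means.

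**Figure D2:**
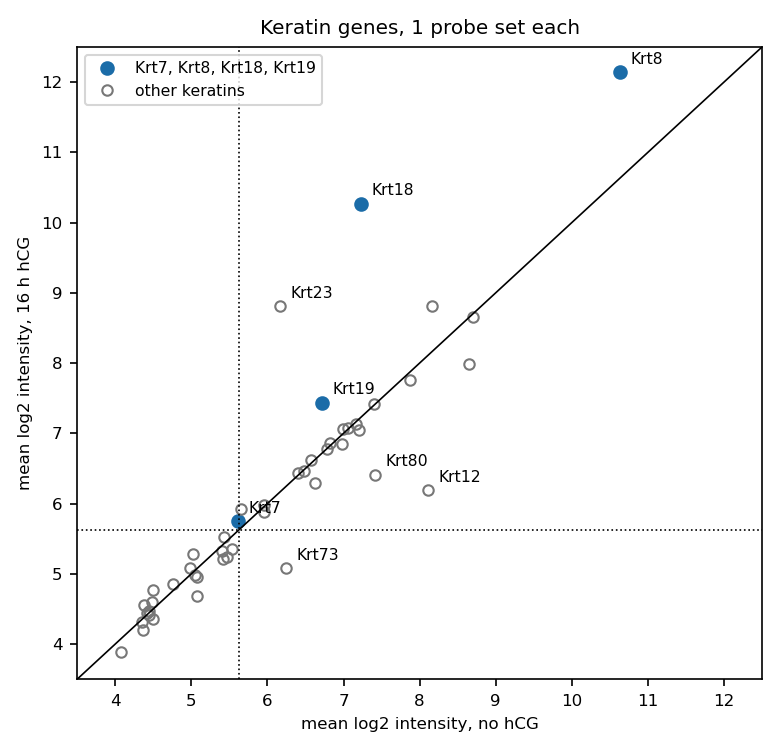
Mean log2 intensity at 16 h (vertical axis) against no hCG (horizontal axis) for the 48 keratin genes, 1 probe set per gene. Filled points are Krt7, Krt8, Krt18 and Krt19, open points the other 44 keratins, the diagonal is equality and the dotted lines mark the dim limit (5.62). Krt18, Krt23 and Krt8 lie farthest above the diagonal and Krt12 farthest below it.

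Of the other 44 keratin genes with a probe set, 21 were dim and 23 were tested. Between 16 h and 8 h, 0 of the 23 were called higher and 3 lower by limma (adjusted p under 0.05), or 1 and 4 at an unadjusted p under 0.05, with a median difference of 0.02 against 0.01 over all genes tested, of which 11.8% were called higher and 9.12% lower. The 3 that fell were Krt76 (-1.40 ± 0.27), Krt73 (-0.82 ± 0.21) and Krt79 (-0.76 ± 0.16). Between 8 h and no hCG, 3 were higher and 2 lower, with a median of -0.07 against -0.02 over all genes tested, of which 16.9% were called higher and 20.5% lower. Krt23, a type I keratin, led these with 8.72 and 8.69 at 8 h, against 6.50 and 5.83 without hCG (2.54 ± 0.21), and it was 8.83 and 8.79 at 16 h. Krt12, known as a keratin of the cornea, and Krt80 were lower at 8 h than without hCG by limma, with differences of -1.86 ± 0.16 and -1.15 ± 0.15. Krt23 was thus high at both hCG times, whereas Krt8 and Krt18 were high at 16 h. In each of the 3 genes that fell, the 16 h and 8 h arrays did not overlap. Not all 3 falls between 16 h and 8 h were called with 8 h replicate 2 or either 16 h array left out, which also lowered the calls over all probe sets. In all 14 other settings and subsets of arrays 0 of these keratins were called higher in that comparison.

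Cdh1, E-cadherin, dipped at 8 h and returned. It measured 7.19 and 7.66 without hCG, 5.78 and 5.50 at 8 h, and 7.35 and 7.06 at 16 h. Both 8 h arrays lay below the other 4, which overlapped each other. The 8 h mean was lower than no hCG by 1.79 on the log2 scale (difference -1.79 ± 0.20), the 16 h mean was higher than 8 h by 1.56 ± 0.20, and 16 h differed from no hCG by -0.22 ± 0.20. Its 8 h mean (5.64) was close to the dim limit, so both steps may be understated. N-cadherin, Cdh2, measured 9.72 and 10.57 without hCG, 10.60 and 11.10 at 8 h, and 10.30 and 10.80 at 16 h, and was not called in any of the 3 comparisons.

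Epcam gave different answers on its probe sets. On the brighter one (1447899_x_at) it measured 9.71 and 8.98 without hCG, 8.97 and 8.83 at 8 h, and 9.06 and 9.03 at 16 h. The group means lay close together, and the spread between the arrays without hCG (SD 0.51) was larger than any difference between groups. The other probe set (1416579_a_at), with 5.99 and 5.94 without hCG, 5.68 and 5.98 at 8 h, and 6.71 and 6.38 at 16 h, was higher at 16 h than at 8 h by 0.71 ± 0.18 and than no hCG by 0.58 ± 0.18. The brighter probe set, by which Epcam is counted, has a name ending in _x_at and may bind other transcripts. The probe sets disagreed in direction for 16 h against no hCG, and no direction is given for this gene.

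Upk3b was lower at both hCG times than without hCG. On its brighter probe set (1454881_s_at) it measured 6.78 and 6.53 without hCG, 5.70 and 5.62 at 8 h, and 4.69 and 4.85 at 16 h. The groups did not overlap and stood in that order. The differences were -0.996 ± 0.160 for 8 h against no hCG, -0.89 ± 0.16 for 16 h against 8 h and -1.89 ± 0.16 for 16 h against no hCG. The other probe set (1434237_at) gave -0.59, -0.25 and -0.84, and its step between 8 h and 16 h was not called (adjusted p = 0.355 by limma), so that step rests on 1 probe set. Both were under the dim limit at 16 h, and 1434237_at was under it at 8 h too (mean 5.52). The size of the difference from no hCG is therefore a measured one that may be understated. Over the 6 arrays the means of both probe sets (5.69 and 5.63) lay just above the limit (5.62), with 6.65 and 6.11 without hCG.

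Ovgp1, oviductin, had of the 8 genes the largest difference between 16 h and 8 h and the widest spread between arrays of a group. Its 1 probe set (1426526_s_at) measured 7.90 and 9.58 without hCG, 7.30 and 8.46 at 8 h, and 11.95 and 11.52 at 16 h. Probe sets whose names end in _s_at may, like those ending in _x_at, bind other transcripts, and no further probe set was there to compare. The no hCG and 8 h arrays overlapped, and both 16 h arrays stood above all 4 of them. Between 16 h and 8 h the difference was 3.85 ± 0.50, a 14.45-fold higher signal, and against no hCG it was 2.99 ± 0.50. For 8 h against no hCG it was -0.86 ± 0.50. Among the arrays without hCG the SD was 1.19, against 0.82 among those at 8 h and 0.30 among those at 16 h. Leaving out single arrays gave between 3.28 and 4.43 for 16 h against 8 h, between 2.15 and 3.83 for 16 h against no hCG, and between -1.70 and -0.02 for 8 h against no hCG, the last being -1.70 when no hCG replicate 1 was left out and -0.02 when no hCG replicate 2 was. It was -0.28 with 8 h replicate 1 left out and -1.44 with 8 h replicate 2 left out.

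**Figure D3:**
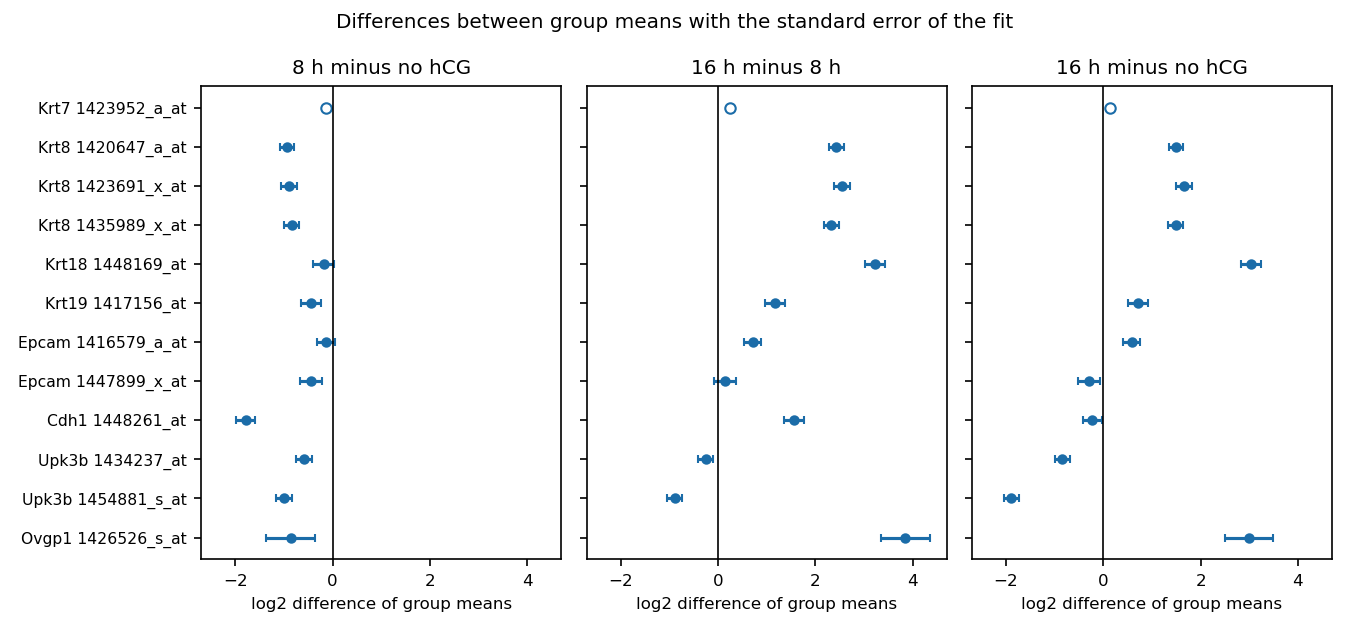
Log2 difference of group means (horizontal axis) for the 12 probe sets (rows) in the 3 comparisons, with bars of 1 SE of the limma fit. The open point is Krt7, which was too dim to be tested. Ovgp1, Krt18 and Krt8 lie farthest to the right for 16 h minus 8 h, and Upk3b lies left of 0 in all 3 panels.

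Counted by gene on the brightest probe set, 7 of the 8 passed the filter on dim values. For 8 h against no hCG, 3 of the 7 were called lower (Krt8, Cdh1 and Upk3b) and 0 higher, at an unadjusted p under 0.05 also 0, where 20.5% of all 13559 tested genes were called lower and 16.9% higher. For 16 h against 8 h, 5 were called higher (Krt8, Krt18, Krt19, Cdh1 and Ovgp1) and 1 lower (Upk3b), where 11.8% of genes were called higher and 9.12% lower. For 16 h against no hCG, 4 were called higher (Krt8, Krt18, Krt19 and Ovgp1) and 1 lower (Upk3b), where 20.8% were called higher and 20.8% lower. The genes were picked with these differences known, so nothing is read from these counts. Without replicate 1 of the group without hCG, Krt19 and Ovgp1 were called lower too for 8 h against no hCG, and without replicate 2 of it Epcam was (-0.80). In that last setting Epcam was also called lower for 16 h against no hCG (-0.66), against 0.58 on its other probe set. Krt19 was not called for 16 h against 8 h without replicate 2 of the 16 h group (1.07), nor for 16 h against no hCG without either 16 h array (0.82 and 0.62) or without replicate 1 of the group without hCG (0.46). The comparisons share arrays, so a low 8 h mean enters the first with one sign and the second with the other.

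Transcripts of the proteins that hold keratin filaments at the membrane were looked at next. Desmosome parts and keratin anchors rose in 3 of 14 tested cases between 16 h and 8 h and fell in 0 (at an unadjusted p under 0.05, 3 and 1), with a median difference of 0.04, beside 11.8% higher and 9.12% lower over all genes. The 3 were the desmosomal cadherin gene Dsg2, with 8.18 and 8.14 at 16 h, against 6.03 and 5.95 at 8 h (2.17 ± 0.18, adjusted p = 4.89e-05 by limma), the keratin-binding plakin gene Dsp (1.82 ± 0.23) and the cross-linker gene Plec (0.69 ± 0.15). Between 8 h and no hCG, 2 rose and 3 fell, beside 16.9% and 20.5% over all genes, so in both comparisons the counts lay near those of all genes. Dsp fell to 8.17 and 8.73 at 8 h, against 11.59 and 12.04 without hCG (-3.36 ± 0.23). The desmosome protein gene Perp (-2.08 ± 0.31) and Dsg2 (-1.22 ± 0.18) fell too, while Plec and the plakophilin gene Pkp2 rose by 1.37 ± 0.15 and 1.07 ± 0.17. At 16 h, Dsp was still lower than without hCG (-1.54 ± 0.23) and Dsg2 higher (0.95 ± 0.18). Plakoglobin, Jup, was 7.84 and 7.86 at 16 h, against 7.80 and 7.70 at 8 h, and was not called.

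Among 11 partners of cadherins and other adherens proteins, 2 rose and 0 fell between 16 h and 8 h, also 0 at an unadjusted p under 0.05, and 4 rose and 1 fell between 8 h and no hCG, with medians of 0.10 and 0.35 (over all genes 11.8% rose and 9.12% fell in the late comparison, and 16.9% and 20.5% in the early one). The late count was 0 with replicate 1 of the 8 h or 16 h group left out, and 1 with replicate 2 of either left out. Vinculin, Vcl, which ties the junction to actin, was higher at 8 h than without hCG by 2.35 ± 0.17, and the nectin genes Nectin2 and Nectin3 rose between 8 h and 16 h by 0.93 ± 0.19 and 0.69 ± 0.16. Vimentin, Vim, the other main intermediate filament protein of granulosa cells, measured 13.86 and 13.88 at 8 h, against 11.18 and 11.25 without hCG (2.66 ± 0.15). It was 13.81 and 13.75 at 16 h, with a difference from 8 h of -0.09 that was not called. Vimentin was therefore high at both hCG times, while the 8 h arrays of Krt8 were its lowest. Of 9 tested genes of a mesenchymal list, to which Vim belongs, 5 rose and 3 fell between 8 h and no hCG (1 fell without replicate 2 of the group without hCG or replicate 1 of the 8 h group), and 2 rose and 2 fell between 16 h and 8 h (0 to 2 with 1 array left out). For 16 h against no hCG, 5 of the 9 rose and 3 fell, where 20.8% of all genes rose and 20.8% fell. Fn1, the fibronectin gene, was highest in that comparison, with a difference of 3.04 ± 0.19. The 3 that fell were Snai2 (-2.68 ± 0.35), Acta2 (-1.36 ± 0.18) and Zeb1 (-1.06 ± 0.25).

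Of 23 tested genes of the wider epithelial programme, 5 rose and 9 fell between 8 h and no hCG, where 16.9% of all genes rose and 20.5% fell, and 6 rose and 4 fell between 16 h and 8 h, where 11.8% rose and 9.12% fell. The list's medians were -0.26 and 0.04, against -0.02 and 0.01 over all genes. The 6 late rises became 2 with 8 h replicate 2 left out, and 3 with any one of the other 8 h and 16 h arrays left out. The largest falls at 8 h were in the epithelial transcription factor gene Ehf (-3.30 ± 0.16), the splicing factor gene Esrp1 (-2.41 ± 0.16) and the grainyhead gene Grhl1 (-1.94 ± 0.20). Grhl3, Esrp2 and the claudin gene Cldn3 rose at 8 h by 1.97 ± 0.21, 1.93 ± 0.18 and 1.42 ± 0.17, and each was lower at 16 h than at 8 h, by differences of -1.39, -1.17 and -1.20. The junctional adhesion molecule gene F11r rose at both steps, by 1.12 ± 0.16 and 1.82 ± 0.16, on its brighter probe set, while its other probe set was not called. The membrane protease gene Prss8 and the claudin gene Cldn7 were higher at 16 h than at 8 h by 0.90 ± 0.15 and 0.79 ± 0.15.

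**Figure D4:**
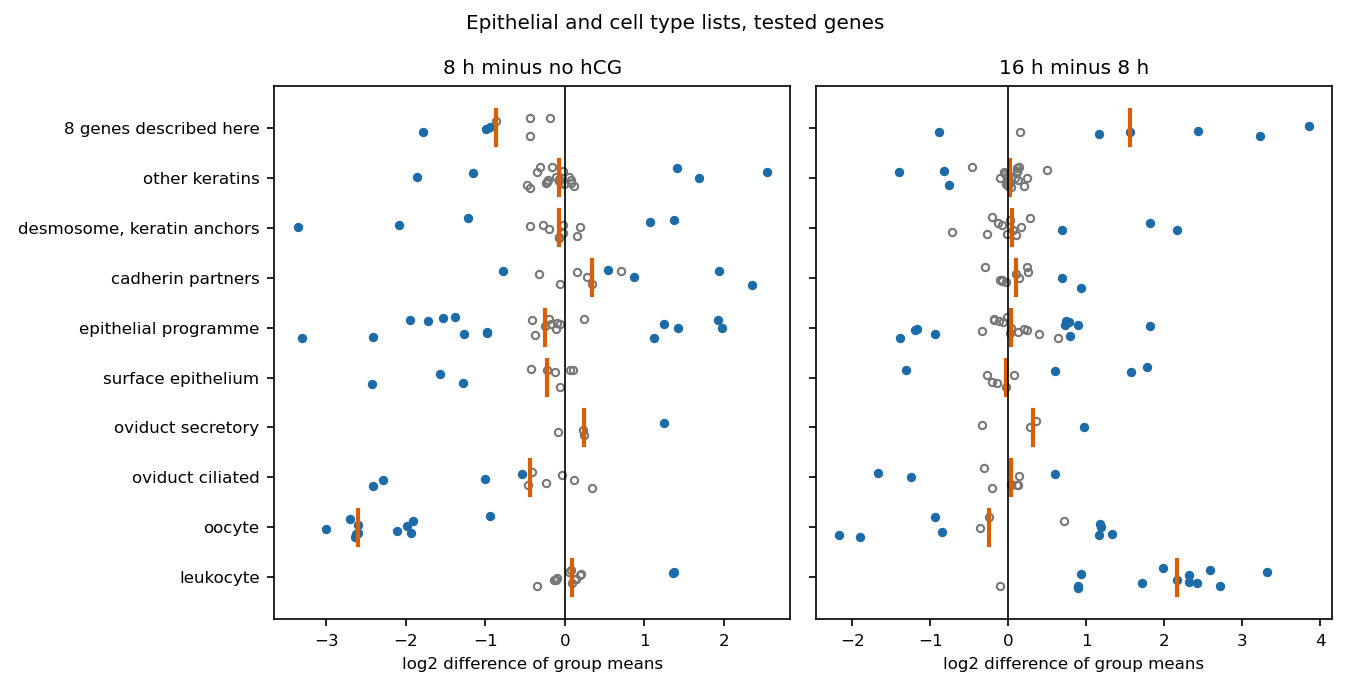
Log2 difference of group means (horizontal axis) of each tested gene, 1 probe set per gene, by list (rows), for 8 h minus no hCG (left) and 16 h minus 8 h (right). Filled points passed the limma threshold, open points did not, and the orange bar is the list's median. The 8 genes described here were chosen on these differences; leukocyte markers, with a median of 2.17, lie right of 0 in the right panel, and oviduct markers spread around 0.

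Markers of the epithelia that lie next to the complexes were set beside these values. Of 8 measured oviduct secretory markers other than Ovgp1, 4 had a mean under the dim limit at 16 h. Pax8, the transcription factor of secretory cells, was 4.78 and 4.80 at 16 h, against 4.77 and 4.86 at 8 h, and Wfdc2 was 5.58 and 5.60 at 16 h, against 5.75 and 5.29 at 8 h. Of the 4 tested, Lcn2, which inflamed epithelia and leukocytes also make, was called higher at 16 h than at 8 h (0.98 ± 0.20, not called without replicate 2 of the 8 h group or replicate 1 of the 16 h group) and 0 were called lower, also 0 at an unadjusted p under 0.05. Of 22 measured markers of ciliated cells, 13 were under the dim limit at 16 h, among them the master regulator Foxj1 (5.56 and 5.60 at 16 h, against 5.43 and 5.33 at 8 h). Of the 10 tested, 1 rose (Rsph1, 0.60 ± 0.15, not called without any one of the 8 h and 16 h arrays) and 2 fell (Tubb4b, -1.67 ± 0.15, and Ccno, -1.25 ± 0.19). Over all genes, 11.8% rose and 9.12% fell between 16 h and 8 h. The mean level over the ciliated list was 5.73 and 5.76 at 16 h, against 5.86 and 5.77 at 8 h, and over the secretory list 6.11 and 6.10 against 6.01 and 5.83. Between 16 h and no hCG, 2 of the 4 tested genes of the secretory list were called higher and 0 lower, where 20.8% of all genes were called higher. They were Cd24a (0.91 ± 0.25) and Lcn2 (0.89 ± 0.20). At an unadjusted p under 0.05, 4 were higher and 0 lower, and the median was 0.74. Only the brightest Cd24a probe set was called in that comparison, while the others gave 0.51 and 0.84. Cd24a was already higher at 8 h than without hCG (1.25 ± 0.25). For 16 h against 8 h its probe sets gave -0.34, -0.54 and -1.22, of which only the last was called. The list mean was 6.11 and 6.10 at 16 h, against 5.72 and 5.69 without hCG. With 16 h replicate 1 left out 0 of the 4 were called higher, and with 16 h replicate 2 left out 1 was. Of the 10 tested ciliated markers, 1 was called higher and 4 lower between 16 h and no hCG, with a median of -0.49. Over all genes, 20.8% were called higher and 20.8% lower. Rsph1 was higher (0.94 ± 0.15), and the largest falls were in Ccno (-3.53 ± 0.19), Fam183b (-2.72 ± 0.15) and Tubb4b (-2.21 ± 0.15). The ciliated list mean was 5.73 and 5.76 at 16 h, against 6.25 and 6.13 without hCG. Pax8 and Foxj1 were under the dim limit on all 6 arrays, and the part of oviduct cells in the difference of Ovgp1 was not tested.

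Ovarian surface epithelium and mesothelium markers were set beside Upk3b. Msln was 5.39 and 5.27 at 16 h, against 5.83 and 5.69 without hCG, and was too dim to be tested, as were Lrrn4 and Muc16. Upk1b, another uroplakin gene, was 6.202 and 6.301 at 16 h, against 6.406 and 6.409 without hCG, and was not called. Of the 9 tested, 1 rose and 3 fell between 16 h and no hCG, with a median of -0.16, where 20.8% of all genes rose and 20.8% fell. Bnc1, which oocytes also express, fell (-1.83 ± 0.16), as did Wt1, which granulosa cells also express (-1.74 ± 0.22), and the retinoic acid enzyme gene Aldh1a2 (-1.56 ± 0.15), and the protease inhibitor gene Slpi rose (1.88 ± 0.18). Between 8 h and no hCG, 0 rose and 3 fell, where 16.9% of all genes rose and 20.5% fell. Between 16 h and 8 h, 3 rose (Slpi, Gpm6a and Bnc1) and 1 fell (Wt1), where 11.8% rose and 9.12% fell. Gpm6a differed by -1.575 between 8 h and no hCG and by 1.579 between 16 h and 8 h. Over 12 measured genes the mean level was 6.60 and 6.67 without hCG, 6.06 and 6.09 at 8 h, and 6.22 and 6.26 at 16 h, and its part in the fall of Upk3b was not tested.

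Other cell types moved with the same comparisons. Over all genes, 11.8% rose and 9.12% fell between 16 h and 8 h, and 16.9% rose and 20.5% fell between 8 h and no hCG. Leukocyte markers rose in 12 of 13 tested cases between 16 h and 8 h and fell in 0 (also 0 at an unadjusted p under 0.05), with a median of 2.17 (6 rose after a filter at the 60th percentile, which tests fewer genes), and Ptprc, the pan-leukocyte gene, was 7.64 and 7.98 at 16 h, against 4.90 and 5.54 at 8 h. The mean over all 14 measured markers was 8.52 and 8.54 at 16 h, against 6.68 and 6.83 at 8 h, and 1 of them, Itgam, was under the dim limit at 16 h. Oocyte markers fell in 11 of 11 cases between 8 h and no hCG, with a list mean of 8.91 and 8.76 at 8 h, against 11.21 and 11.02 without hCG, and then 4 rose and 4 fell by 16 h (2 fell without replicate 1 of the 8 h group or replicate 2 of the 16 h group). Of 11 cumulus genes, 7 rose and 4 fell between 8 h and no hCG, and 2 rose and 5 fell between 16 h and 8 h (1 to 3 rose and 2 to 6 fell with 1 array left out). Bmp15, an oocyte growth factor, was among the 4 that rose (1.33 ± 0.16), and Zp3 among the 4 that fell (-1.90 ± 0.26). The part of leukocytes in the late rise of the keratins and Ovgp1, and of the oocyte in the dip of Cdh1 and Krt8, was not tested. Of 8 tested markers of theca and stroma, 4 were lower at 16 h than at 8 h and 0 higher, also 0 at an unadjusted p under 0.05, but the count was 7 when the group without hCG gave no estimate of the spread (left out whole, or with 1 array), and 2 when 8 h replicate 2 or either 16 h array was left out. Of 4 endothelial markers 0 were called in that comparison, also 0 at an unadjusted p under 0.05, and of 2 erythrocyte markers 0, or 1 at an unadjusted p under 0.05.

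The genes most like each member were found by the root mean square distance between profiles over the 6 arrays, each centred on its own mean, among 13552 other tested genes. Krt8 lay nearest to Nr4a2, an orphan nuclear receptor gene, at a distance of 0.12 (log2), whose values were 7.32 and 7.18 without hCG, 6.47 and 6.06 at 8 h, and 8.84 and 8.64 at 16 h. Krt18 lay nearest to Trim34a (0.09), Pik3c2g (0.16) and Plek (0.22). Cdh1 lay nearest to Nemp2 and Tdgf1 (0.16 each), Upk3b to Olfm1 (0.06) and Krt19 to the translation factor gene Eif4b (0.09). Ovgp1 had no neighbour as close in log2 units: the nearest were the iron exporter gene Slc40a1 (0.38), Lrrn1 (0.42) and the lysozyme gene Lyz1 (0.48). Profiles were not scaled, so the distance grows with how much a gene varies. Ovgp1 varied most, with a root mean square of 1.76 around its own mean, against 0.13 to 1.49 for the other members. Its larger distances therefore do not show that its pattern is less shared. Slc40a1 measured 8.64 and 9.73 without hCG, 8.53 and 8.78 at 8 h, and 12.13 and 12.20 at 16 h, so like Ovgp1 it was higher on replicate 2 than on replicate 1 of the group without hCG. These 6 arrays hold 3 groups only, so a small distance says little beyond a like order of group means.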

How the data were processed

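Total RNA of 6 pools was labelled with biotin and hybridised to Affymetrix mouse arrays, per the labels' protocols. The deposited table gives each probe set a log2 intensity on each array; that these are log2 values was judged from their range (3.32 to 15.53), and the software, background correction and normalization the authors used are not given in the sources used here. Medians of arrays differed by 0.125 at most, under the limit of 0.2, so values were used as deposited. Of 45101 probe sets, 64 controls were left out. The platform annotation gave 34945 of the rest 1 gene symbol, 932 several and 9160 none, and only the first were named; all 8 members matched a RefSeq gene by gene number.

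Probe sets with a mean under the 40th percentile (5.62) were not tested, which left 27022. A model of the 3 group means over the 6 arrays was fitted in limma 3.58.1 (R 4.3.3, lmFit and eBayes, 3 residual and 6.43 prior degrees of freedom). Two-sided p-values were adjusted by Benjamini-Hochberg over the 27022, and an adjusted p under 0.05 was a call. The fit was tested on simulated data. A gene with several probe sets counted through the brightest. The members and 14 lists were chosen with earlier results of these data known; several lists share genes (Jup, Cdh3, Cd24a, Acta2). Genes named from a list were taken from its 3 highest and 3 lowest called genes per comparison, and not all of these are named. Fixed ones were added (Vim, Jup, Dsp, Cdh2, Foxj1, Pax8, Msln, Upk1b, Zp3, Has2, Ptprc), and Krt8, Krt18 and other members were always named. Wfdc2, Lrrn4, Muc16 and Itgam were named after their values were seen. In all, 14 alternatives were run, 6 of them leaving out 1 array.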

Additional observations from a re-analysis of the deposited data

How the results depend on the processing

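The differences called for Krt8, Krt18, Krt19, Cdh1, Upk3b and Ovgp1 kept their direction under every one of the 14 alternatives that gave a value. Krt7 was too dim to be tested, and Epcam, not called as reported, was called with opposite signs for 16 h against no hCG: 0.58 without _x_at and _s_at probe sets and -0.66 without no hCG replicate 2. Of 156 member differences recomputed with all arrays kept, 145 moved by less than the spread between arrays and 11 moved further; with 2 arrays a group, leaving 1 out cannot move a mean by more than that spread, so those values are not counted. Of the 11, 10 (Upk3b and Epcam) came from another choice among a gene's probe sets and 1 (Krt8, 1.41 for 16 h against no hCG) from quantile normalization; Upk3b, for 16 h against 8 h, was -0.25 and not called without _x_at and _s_at probe sets. Ovgp1 has no probe set left under that setting. The number of members called lower for 8 h against no hCG was 3, with 1 after a filter at the 60th percentile, and 3 to 5 with 1 array left out. For 16 h against 8 h, 5 were called higher and 1 lower, with 3 and 0 after the filter at the 60th percentile, 0 lower without _x_at and _s_at probe sets, and 4 to 5 higher and 1 lower with 1 array left out. For 16 h against no hCG, 4 were higher and 1 lower, with 0 lower after that filter, and 3 to 4 higher and 1 to 2 lower with 1 array left out. The filter acts by testing fewer genes.

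Over all 27022 probe sets, 9167 changed between 8 h and no hCG (6109 to 9450 with 1 array left out), 4922 between 16 h and 8 h (2518 to 6340) and 10072 between 16 h and no hCG (7312 to 10345). The lowest counts come without an array of a compared group, which leaves that group 1 array assumed to vary like the others. The mean over a gene's probe sets gives no count of probe sets. Same-numbered arrays share only a number: the correlations of the differences between replicates were 0.47, 0.00 and 0.14 for the 3 pairs of groups. With the replicate block 10117, 5812 and 11045 probe sets were called, and 4 members lower for 8 h against no hCG, Krt19 being added. Of 1176 list counts, 85 moved by over 1.5 times, 28 of them with all arrays kept.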
